A study of Homo sapiens with 6 samples.

Results

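The 9 genes described here encode the FOS and JUN subunits of the transcription factor AP-1 and the zinc finger factors of the EGR family: FOS, FOSL1 and FOSL2, JUN, JUNB and JUND, and EGR1, EGR2 and EGR3. They were taken by symbol from the 26931 gene symbols of the deposited tables. FOS and EGR family genes are the classic immediate early genes, whose transcription follows growth factor and stress signals within minutes and needs no new protein synthesis. Each of the 9 symbols stood on 1 row with an OK status in every library. Of the 9, 8 passed the filter on low values (2 or more libraries at 1 FPKM or above), which left 13043 genes to test. EGR3 stayed below it in every library.

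TC32 is an established human cell line from Ewing sarcoma, a bone and soft tissue tumour. Most such tumours carry EWS-FLI1, a fusion of the RNA-binding protein EWSR1 with the DNA-binding domain of the ETS family factor FLI1. The cells received siEWSR1 or siFLI1, siRNAs that target the partner genes of that fusion, or the control siRNA siNeg. RNA was taken 48 h after transfection. Each group had 2 libraries, 6 in all, and all came from this single line in serum-containing medium with no added stimulus named in the labels. The levels therefore describe cells 2 days after transfection, not the minutes after a stimulus.

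FOS proteins cannot bind DNA alone and pair with a JUN protein, while JUN proteins also pair with each other. The pairs bind the sequence TGANTCA, and pairs with ATF proteins prefer TGACGTCA. JUN and FOS activate strongly, JUNB is a weaker activator that can oppose JUN, and JUND is the member usually present in resting cells. EGR proteins bind GC-rich sites such as GCGNGGGCG, and the NAB corepressors hold their activity back. Mitogen signals reach FOS and EGR promoters largely through SRF, which binds a site called the CArG box, and its partners of the ELK family.

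The siRNA targets were lower as labelled. EWSR1 stood at 46.5 and 47.2 FPKM with siNeg and at 34.6 and 32.3 with siEWSR1, a log2 change of -0.48 ± 0.06 (SE, adjusted p = 0.000444). FLI1 stood at 10.9 in both siNeg libraries and in the siFLI1 libraries at 8.98 and 8.56, a log2 change of -0.29 ± 0.06 (adjusted p = 0.00423). Neither partner gene was called lower with the siRNA against the other. FLI1 stood at 10.4 and 10.6 FPKM with siEWSR1 (log2 change -0.04 ± 0.06, adjusted p = 0.534). EWSR1 stood at 51.2 and 50.2 with siFLI1 (0.11 ± 0.06, adjusted p = 0.11). These gene-level values add the normal transcripts to those of any fusion, whose own level was not measured. The deposited intervals implied a like depth in all libraries, from 15160167 to 16298972 fragments, and 12079 to 12741 genes reached 1 FPKM. Ewing sarcoma markers fitted the label: CD99 stood at 303.1 and 308.3 FPKM and NR0B1 at 204.2 and 233.9 with siNeg, while PAX7 and GLI1 were below 1 in every library.

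The upstream DNA of 4 members that were called with at least 1 siRNA is shown to compare the motifs they hold. FOSL2, also called with siEWSR1, was searched in the same way but is not printed. RefSeq promoters (GRCh38.p14) matched 7 of the 9 members. Each line gives the 250 bases before the annotated start, 5′ to 3′ on the strand of the gene, with motif matches in capitals.

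EGR1, chr5:138465229-138465478, plus strand: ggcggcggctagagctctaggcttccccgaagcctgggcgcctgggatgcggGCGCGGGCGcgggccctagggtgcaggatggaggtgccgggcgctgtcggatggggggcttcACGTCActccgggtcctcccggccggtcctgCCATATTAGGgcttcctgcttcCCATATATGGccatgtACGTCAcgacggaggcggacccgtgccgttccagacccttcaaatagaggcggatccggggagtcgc
EGR2, chr10:62816367-62816616, minus strand: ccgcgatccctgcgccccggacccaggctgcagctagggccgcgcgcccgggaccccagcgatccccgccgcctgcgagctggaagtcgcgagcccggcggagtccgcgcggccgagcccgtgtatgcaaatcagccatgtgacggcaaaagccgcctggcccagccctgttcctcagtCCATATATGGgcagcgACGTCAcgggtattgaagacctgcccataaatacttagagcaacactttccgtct
FOS, chr14:75278578-75278827, plus strand: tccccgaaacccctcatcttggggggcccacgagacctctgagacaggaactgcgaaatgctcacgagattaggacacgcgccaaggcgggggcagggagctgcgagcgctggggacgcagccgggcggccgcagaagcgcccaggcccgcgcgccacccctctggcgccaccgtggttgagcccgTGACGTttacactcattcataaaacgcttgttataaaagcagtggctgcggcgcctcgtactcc
JUNB, chr19:12791236-12791485, plus strand: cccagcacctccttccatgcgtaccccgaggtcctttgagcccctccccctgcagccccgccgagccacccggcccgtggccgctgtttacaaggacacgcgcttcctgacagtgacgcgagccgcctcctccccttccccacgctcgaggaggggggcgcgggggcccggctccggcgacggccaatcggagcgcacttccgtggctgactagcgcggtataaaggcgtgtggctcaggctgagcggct

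The motifs searched on both strands were TGANTCA, TGACGTCA, its shorter core TGACGT (which overlaps it), TGACATCA, GCGNGGGCG, GGAAGGAA, CCGGAAG and the CArG box. The EGR1 window held 2 CArG boxes, 105 to 96 and 83 to 74 bases before the start, while 1.16% of 35116 promoters held any. It also held 1 GCGNGGGCG, 198 to 190 bases before the start (8.41% of promoters), and 2 copies of TGACGT (7.1% of promoters). The first of the 3 EGR2 starts in the table, shown above, had 1 CArG box 71 to 62 bases before it and 1 TGACGT. Neither motif was in the windows of its other starts. FOS had 1 TGACGT, 64 to 59 bases before its start, as did FOSL2, 66 to 61 bases before its start. JUN had the variant TGACATCA 67 to 60 bases before its start (2.37% of promoters), and JUND had 1 TGACGTCA 200 to 193 bases before its start (1.65% of promoters) and 1 further TGACGT. The JUNB window held none of these motifs. TGANTCA (6.57% of promoters), CCGGAAG (8.52%) and the ETS repeat GGAAGGAA (3.06%) were in none of the windows of the 7 matched members. A match describes the letters in this window and is not evidence of binding. Bases farther upstream were not searched. A window without a CArG box, such as that of FOS, thus does not show that the gene lacks one.

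**Figure D1:**
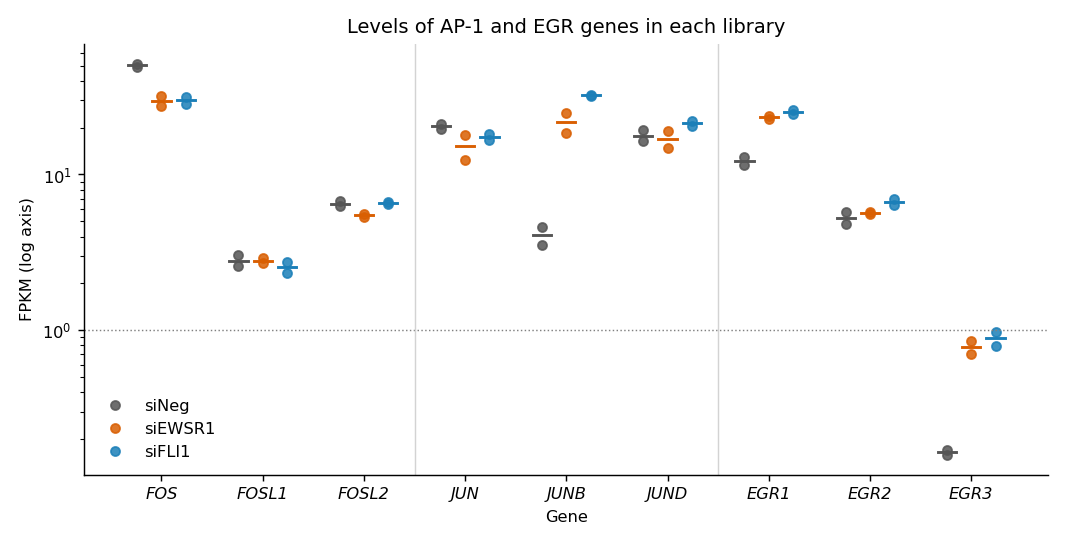
FPKM of each of the 9 genes (horizontal axis, grouped by family) on a log axis. Each point is 1 library, short bars are means of 2 libraries, and the dotted line marks 1 FPKM. JUNB moves from 3.54 and 4.58 with siNeg to between 18.5 and 32.4 with either siRNA against the fusion partners, and EGR3 stays below 1 throughout.

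With siNeg, FOS was the most abundant of the 9 transcripts per length, at a mean of 50.1 ± 2.04 FPKM (SD, n = 2), a level above 90.5% of tested genes. JUN followed at 20.4 ± 1.03, JUND at 17.8 ± 2.04, EGR1 at 12.2 ± 0.986 and FOSL2 at 6.48 ± 0.339 FPKM. EGR2 at 5.28 ± 0.703, JUNB at 4.06 ± 0.738, FOSL1 at 2.80 ± 0.329 and EGR3 at 0.164 ± 0.00912 FPKM completed the order. No neighbours in this order overlapped between their 2 libraries. With siFLI1 the order began with JUNB at 32.2 ± 0.262, FOS at 29.8 ± 2.0 and EGR1 at 25.1 ± 0.977 FPKM, and only EGR2 and FOSL2 overlapped. With siEWSR1 it began with FOS at 29.7 ± 3.18, EGR1 at 23.2 ± 0.794 and JUNB at 21.6 ± 4.35 FPKM, and EGR1 overlapped JUNB, JUNB overlapped JUND, and JUND overlapped JUN.

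With siEWSR1 compared with siNeg, JUNB and EGR1 rose while FOS and FOSL2 fell. With siFLI1 compared with siNeg, JUNB, EGR1 and EGR2 rose and FOS fell. In each comparison 4 of the 8 tested members passed an adjusted p of 0.05 (limma on log2 FPKM + 0.5, Benjamini-Hochberg over all genes). Changes this common were the rule in these libraries. Of all genes tested, 64.2% were called with siEWSR1, 33.2% higher and 31% lower. With siFLI1, 65.3% were called, 35.7% higher and 29.6% lower. The members' share of 50% was thus not above the background in either comparison. Their median absolute log2 change was 0.33 with siEWSR1 and 0.29 with siFLI1, beside 0.35 over all genes in each. The FPKM ranges of the groups did not overlap for 5 of the 8 tested members with siEWSR1, beside 83.3% of all genes tested, and for 6 of 8 with siFLI1, beside 84.7%. Neither count was above the background. EGR3, which was not tested, did not overlap in either comparison. The 2 comparisons share the siNeg libraries, so likeness between them is not independent.

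**Figure D2:**
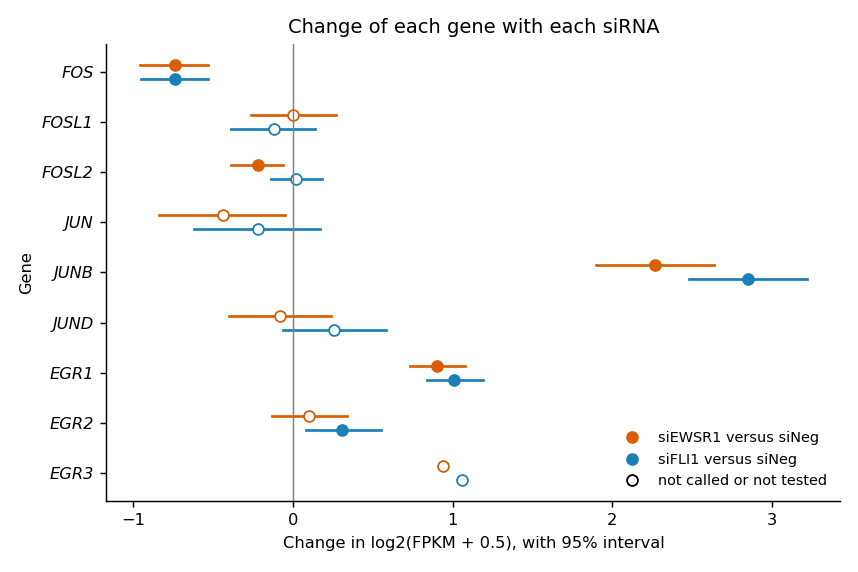
Change in log2(FPKM + 0.5) of each gene (vertical axis) with each siRNA against siNeg. Bars are 95% intervals from the fit over all 6 libraries, filled points were called at an adjusted p of 0.05, and EGR3 was not tested and has no interval. JUNB stands farthest to the right at 2.27 and 2.85, FOS farthest to the left at -0.74 with each siRNA.

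FOS (hg19, chromosome 14, 75745481 to 75748937), the founding FOS family member, fell with each siRNA by the same amount. Its FPKM was 51.5 and 48.6 with siNeg, 32.0 and 27.5 with siEWSR1, and in the siFLI1 libraries 31.3 and 28.4. Every library with an siRNA against a fusion partner lay below every siNeg library. The log2 change was -0.74 ± 0.09 with siEWSR1 (SE, adjusted p = 0.000504, 1.68-fold lower) and -0.74 ± 0.09 with siFLI1 (adjusted p = 0.000482, 1.67-fold lower). Between the 2 siRNAs FOS differed by -0.01, with a 95% interval of -0.22 to 0.20.

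FOSL2 (chromosome 2, 28615779 to 28637516), also called FRA2, lacks the strong activation domain of FOS. Its FPKM was 6.71 and 6.24 with siNeg, 5.59 and 5.35 with siEWSR1, and 6.65 and 6.50 with siFLI1. Both siEWSR1 libraries lay below all others. Its log2 change with siEWSR1 was -0.22 ± 0.07 (adjusted p = 0.0245), and this call was lost without siNeg replicate 1 (-0.17, adjusted p = 0.139) or without siEWSR1 replicate 2 (-0.2, adjusted p = 0.0969). With siFLI1 the log2 change was 0.02 (95% interval -0.14 to 0.18), and its sign turned with other scalings of the libraries, -0.07 under quantile normalization and -0.02 under median-ratio scaling. The difference between the 2 siRNAs, -0.25 (-0.41 to -0.08), did not pass (adjusted p = 0.0951). The row overlaps that of FLJ31356, whose reads cannot be told apart without strand.

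FOSL1 (chromosome 11, 65659607 to 65667997), or FRA1, is the FOS family member often linked to migration in epithelial tumours. It was the lowest tested member, with 3.04 and 2.57 FPKM with siNeg, 2.70 and 2.91 with siEWSR1, and 2.33 and 2.74 with siFLI1. All 3 groups overlapped. Its log2 change was 0.00 with siEWSR1 (95% interval -0.26 to 0.27, -0.18 under quantile normalization) and -0.12 with siFLI1 (-0.39 to 0.14). Under quantile normalization alone the latter passed, at -0.35 (adjusted p = 0.0342).

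FOSB, the remaining family member, stayed below the filter, at 0.513 and 0.508 FPKM with siNeg, 0.694 and 0.817 with siEWSR1, and 0.560 and 0.602 with siFLI1. Together the 4 FOS family genes summed to 59.8 ± 2.71 FPKM with siNeg, 38.8 ± 3.11 with siEWSR1 and 39.5 ± 1.78 with siFLI1 (SD, n = 2). FOS made up 83.6% of that sum with siNeg, 76.6% with siEWSR1 and 75.4% with siFLI1.

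JUNB (chromosome 19, 12902310 to 12904125) rose the most of the tested members. Its FPKM was 4.58 and 3.54 with siNeg, 24.7 and 18.5 with siEWSR1, and in the siFLI1 libraries 32.0 and 32.4. The 3 groups did not overlap. The log2 change was 2.27 ± 0.15 with siEWSR1 (adjusted p = 5.76e-05, 4.83-fold higher), the 205th highest of all tested genes. With siFLI1 it was 2.85 ± 0.15 (adjusted p = 2.08e-05, 7.21-fold higher), the 134th highest. Without the pseudocount, the ratio of mean FPKM was 5.32 and 7.92. Between the 2 siRNAs JUNB differed by -0.58 (95% interval -0.95 to -0.20), which did not pass (adjusted p = 0.0914) except without siEWSR1 replicate 1 (-0.78, adjusted p = 0.0333).

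JUN (chromosome 1, 59246463 to 59249785), the main partner of FOS, was lower in each group than with siNeg without passing the test. Its FPKM was 21.1 and 19.6 with siNeg, 18.0 and 12.3 with siEWSR1, and 18.2 and 16.6 with siFLI1. No library with either siRNA reached the siNeg range. The log2 change with siEWSR1 was -0.44 ± 0.16 (95% interval -0.84 to -0.05, adjusted p = 0.0525), and it passed under median-ratio scaling (-0.45, adjusted p = 0.0474) and without siEWSR1 replicate 1 (-0.71, adjusted p = 0.000593). Without siEWSR1 replicate 2 it was smaller, at -0.17 (adjusted p = 0.124). With siFLI1 it was -0.22 ± 0.16 (-0.62 to 0.17, adjusted p = 0.271). A fit of these 2 groups alone called the same log2 change (adjusted p = 0.0294), as did fits without siEWSR1 replicate 1 (adjusted p = 0.0277) or 2 (adjusted p = 0.0281).

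JUND (chromosome 19, 18390504 to 18392466), the most steadily expressed JUN gene, stood at 16.3 and 19.2 FPKM with siNeg, 19.1 and 14.8 with siEWSR1, and, under siFLI1, 20.5 and 22.2. The siEWSR1 range overlapped the siNeg range, and both siFLI1 libraries lay above the siNeg range. The log2 change was -0.08 (95% interval -0.40 to 0.24) with siEWSR1 and turned to 0.04 without siNeg replicate 2 and to 0.10 without siEWSR1 replicate 2. With siFLI1 it was 0.26 (-0.06 to 0.58, adjusted p = 0.128), called in a fit of these 2 groups (adjusted p = 0.0418) and without siEWSR1 replicate 1 (adjusted p = 0.0372) or 2 (adjusted p = 0.0387).

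All 3 JUN genes were lower in siEWSR1 replicate 2 than in replicate 1. The log2 difference was -0.54 for JUN, -0.40 for JUNB and -0.36 for JUND, among the lowest 1.7%, 3.7% and 5.0% of tested genes, beside a median of -0.026. IER2, another small immediate early gene, named after its values were seen, differed by -0.51, while EGR1 differed by 0.07 and FOS by -0.21. Other immediate early genes went the other way, such as BTG2 (46.5 to 52.9 FPKM) and PHLDA1 (4.90 to 5.94). The part of this library difference in the results for JUN genes with siEWSR1 was not tested beyond the fits without each library. Such gaps were not confined to siEWSR1. Between the siNeg libraries JUNB differed by -0.33 and EGR2 by -0.25, among the lowest 1.4% and 2.9%, while JUND differed by 0.23. FOS, FOSL2 and JUN were lower in replicate 2 in each group. Their differences were -0.08, -0.10 and -0.10 with siNeg, and -0.13, -0.03 and -0.13 with siFLI1.

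Within the JUN family, JUNB made up 10.9% and 8.35% of the summed FPKM with siNeg, 40.0% and 40.7% with siEWSR1, and 45.3% and 45.5% with siFLI1. JUN itself made up 50.2% and 46.3% with siNeg, 29.1% and 26.9% with siEWSR1, and 25.7% and 23.4% with siFLI1. Summed over the family, the level was 42.2 ± 0.277 FPKM with siNeg, 53.6 ± 11.5 with siEWSR1 and 70.9 ± 0.355 with siFLI1 (SD, n = 2). With 2 libraries a group, an exact permutation test of a single value cannot go below p = 0.333, so these shares are given without one.

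Summed over the FOS and JUN families, the level was 103.8 and 100.3 FPKM with siNeg, 102.7 and 82.1 with siEWSR1, and 111.4 and 109.4 with siFLI1. In this sum the siEWSR1 range overlapped that of siNeg, and the siFLI1 range lay above both. Of the sum, FOS was 49.0 ± 0.831% with siNeg, 32.3 ± 1.66% with siEWSR1 and 27.0 ± 1.46% with siFLI1. JUNB was 3.97 ± 0.628%, 23.3 ± 1.04% and 29.1 ± 0.615%. These are shares of RNA, and protein was not measured.

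**Figure D3:**
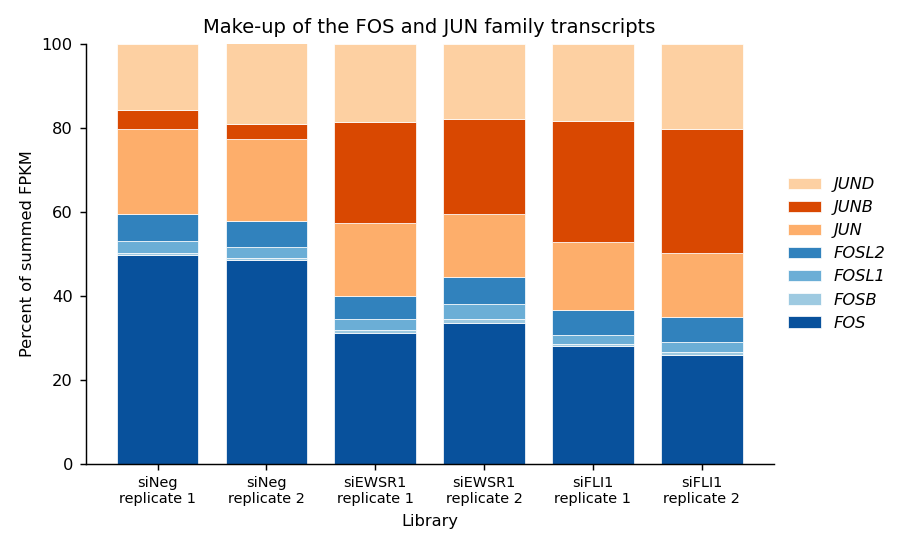
Share of the summed FPKM of FOS family genes (blue) and JUN family genes (orange) held by each gene (vertical axis, percent), with 1 bar per library. JUNB widens from 3.53% and 4.42% in the siNeg libraries to between 22.6% and 29.6% in the others, and FOS narrows from 48.5% and 49.6% to between 26.0% and 33.5%.

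EGR1 (chromosome 5, 137801181 to 137805004), an early growth response factor that also acts on growth arrest genes, rose with each siRNA. Its FPKM was 12.9 and 11.5 with siNeg, 22.7 and 23.8 with siEWSR1, and 24.4 and 25.8 with siFLI1. All siNeg libraries lay below all others. The log2 change was 0.90 ± 0.07 with siEWSR1 (adjusted p = 0.000104, 1.87-fold higher) and 1.01 ± 0.07 with siFLI1 (adjusted p = 5.83e-05, 2.02-fold higher). Between the 2 siRNAs it differed by -0.11 (95% interval -0.29 to 0.06).

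EGR2 (chromosome 10, 64571756 to 64578927), known for its part in peripheral nerve myelination and hindbrain patterning, changed less. Its FPKM was 5.78 and 4.78 with siNeg, 5.78 and 5.60 with siEWSR1, and 6.36 and 6.97 with siFLI1. Both siFLI1 libraries lay above the siNeg range, and the siEWSR1 libraries overlapped it. The log2 change was 0.31 ± 0.10 with siFLI1 (adjusted p = 0.0284). It was not called with no filter on low values (adjusted p = 0.0675), under quantile normalization (0.20, adjusted p = 0.0922), or without siNeg replicate 2 (0.19, adjusted p = 0.142) or siFLI1 replicate 2 (0.25, adjusted p = 0.14). With siEWSR1 the log2 change was 0.10 (95% interval -0.13 to 0.34), and -0.02 without siNeg replicate 2.

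EGR3 (chromosome 8, 22545174 to 22550815), known for its need in muscle spindle development, was near the lower end of detection. Its FPKM was 0.158 and 0.171 with siNeg, 0.705 and 0.852 with siEWSR1, and 0.799 and 0.977 with siFLI1. In the authors' deposited table, the intervals reached 0.226 and 0.244 at most with siNeg and began at 0.566 and 0.695 with siEWSR1 and at 0.644 and 0.808 with siFLI1. The ratio of mean FPKM to siNeg was 4.73 with siEWSR1 and 5.40 with siFLI1. In a fit with no filter on low values the log2 change was 0.94 ± 0.10 (adjusted p = 0.00259) and 1.06 ± 0.10 (adjusted p = 0.00172).

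EGR4 did not exceed 0.167 FPKM. The 4 EGR genes summed to 17.7 ± 1.67 FPKM with siNeg, 29.8 ± 0.824 with siEWSR1 and 32.8 ± 1.61 with siFLI1 (SD, n = 2), and EGR1 was 69.1%, 78.0% and 76.6% of the sum. NAB2, a corepressor of EGR proteins, rose from 22.4 and 20.6 FPKM with siNeg to 34.4 and 32.5 with siEWSR1 and to 32.1 and 36.1 with siFLI1. The log2 change was 0.63 ± 0.08 (adjusted p = 0.000612) and 0.65 ± 0.08 (adjusted p = 0.000479). Its row overlaps STAT6. NAB1, its paralog, rose by a log2 change of 0.42 ± 0.11 with siEWSR1 (adjusted p = 0.0132) and 0.33 ± 0.11 with siFLI1 (adjusted p = 0.0325). The siEWSR1 call of NAB1 held in 17 of 18 alternatives and was lost without siNeg replicate 1. The siFLI1 call held in 10 of 18, and was lost without either library of siNeg or of siFLI1, with no filter and under both other scalings.

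No member passed the test between siEWSR1 and siFLI1, against 3.86% of all genes, 0.79% higher and 3.07% lower with siEWSR1. Before adjustment, 3 of 8 had a limma p-value under 0.05. They were JUNB, FOSL2 and JUND, with unadjusted values of 0.00865, 0.00928 and 0.0426, each lower with siEWSR1. No other tool was run on this comparison, and without siEWSR1 replicate 1 limma called 3 members, JUN (-0.49, adjusted p = 0.0354), JUNB and JUND (-0.51, adjusted p = 0.049). The members' median log2 difference was -0.21, beside -0.03 over all genes. The split of all 504 called genes into 103 higher and 401 lower was 209 and 343 under quantile normalization and 159 and 351 under median-ratio scaling.

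The other genes of these pathways were read from lists taken from general knowledge, but chosen with earlier results of these data known. Of 9 tested factors that can pair with FOS or JUN proteins or share their sites, 1 was higher and 4 lower with siEWSR1 (median log2 change -0.29), and 1 was higher and 6 lower with siFLI1 (median -0.23). The median over all genes was 0.007 and 0.041, and 64.2% and 65.3% of all genes were called. Over all genes, 33.2% were higher and 31% lower with siEWSR1, and 35.7% higher and 29.6% lower with siFLI1. ATF3, a stress-induced partner of JUN proteins, fell from 9.49 and 8.55 FPKM with siNeg to 2.89 and 2.85 with siEWSR1 and 3.46 and 3.84 with siFLI1. It was 2.82-fold lower (log2 change -1.50 ± 0.08, adjusted p = 2.75e-05) and 2.30-fold lower (-1.20 ± 0.08, adjusted p = 5.08e-05). ATF2, a widely expressed partner of JUN, was 1.22-fold and 1.26-fold lower (adjusted p = 0.00571 and 0.00284). With siFLI1, MAFG was 1.17-fold lower (adjusted p = 0.02), a call lost without either siNeg library or siFLI1 replicate 2. ATF7 was 1.16-fold lower (adjusted p = 0.029), a call kept in 14 of 18 alternatives and lost, among others, without siNeg replicate 1 or either siFLI1 library.

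JDP2 and MAF, named after their values were seen, changed the most in that list. JDP2, a repressor that pairs with JUN, stood at 4.12 and 4.61 FPKM with siNeg, 0.891 and 0.825 with siEWSR1, and 1.39 and 1.40 with siFLI1. It was 3.58-fold lower with siEWSR1 (adjusted p = 1.91e-05) and 2.56-fold lower with siFLI1 (adjusted p = 4.68e-05), and its difference between the siRNAs was called in 5 of 17 alternatives. JDP2 was below 1 FPKM with siEWSR1 and entered the test only through the other libraries. Its direction with siEWSR1 was thus tied to the filter. MAF, a large Maf factor that binds a longer form of the AP-1 site, was at 0.0800 and 0.0742 FPKM with siNeg, 1.85 and 2.20 with siEWSR1, and 2.18 and 2.44 with siFLI1. MAF thus rose, with a log2 change of 2.13 ± 0.11 with siEWSR1 (adjusted p = 2.45e-05) and 2.28 ± 0.11 with siFLI1 (adjusted p = 1.56e-05). It entered the test only through the libraries of these siRNAs, so its direction was tied to the filter.

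Other immediate early genes were mostly higher. Of 19 tested, 12 were higher and 3 lower with siEWSR1 (median log2 change 0.53), and 11 were higher and 2 lower with siFLI1 (median 0.53). Over all genes, 33.2% and 35.7% were higher and 31% and 29.6% lower. PHLDA1 and KLF2, counted as higher, were below 1 FPKM with siNeg and entered the test only through the other libraries. PHLDA1, an inhibitor of growth signalling, went from 0.873 and 0.843 FPKM to 4.90 and 5.94 with siEWSR1 and 7.10 and 7.39 with siFLI1 (4.34-fold and 5.70-fold higher, adjusted p = 1.52e-05 and 7.18e-06). KLF4, a factor linked to growth arrest, went from 3.97 and 3.78 to 15.2 and 15.1 and to 18.2 and 18.9 FPKM (3.58-fold and 4.36-fold higher, adjusted p = 4.56e-06 and 2.43e-06). BTG2, an antiproliferative gene, went from 19.9 and 19.4 FPKM to 46.5 and 52.9 with siEWSR1 (2.49-fold higher, adjusted p = 3.84e-05). With siFLI1 it stood at 44.2 and 48.8 (2.33-fold higher, adjusted p = 4.18e-05). IER3, a stress-inducible survival gene, was 2.49-fold and 2.80-fold higher (adjusted p = 0.000215 and 0.000115).

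SGK1, a kinase gene induced by serum and glucocorticoids, moved the other way. It went from 92.6 and 71.4 FPKM with siNeg to 41.7 and 36.3 with siEWSR1 and to 34.7 and 33.9 with siFLI1. The fall was 2.08-fold and 2.35-fold (adjusted p = 0.000541 and 0.000252). Named after their values were seen, DUSP1, which switches MAP kinases off, was 1.81-fold and 1.88-fold higher (adjusted p = 0.000527 and 0.00036). ZFP36, which destabilises many immediate early mRNAs, was 1.86-fold and 2.21-fold higher (adjusted p = 0.000176 and 5.83e-05). TIPARP, named likewise, was 2.09-fold and 1.87-fold lower (adjusted p = 5.39e-05 and 8.69e-05), and its row overlaps TIPARP-AS1.

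Among 23 genes of the ERK and JNK cascades and of SRF and its partners, 7 were higher and 5 lower with siEWSR1 (median log2 change 0.04), and 10 were higher and 6 lower with siFLI1 (median 0.02). Over all genes, 64.2% and 65.3% were called, 33.2% and 35.7% higher and 31% and 29.6% lower. The largest changes among list genes of at least 5 FPKM lay in SRF cofactors. MKL2 and MKL1, actin-regulated coactivators of SRF, were 2.17-fold and 1.89-fold higher with siEWSR1 (adjusted p = 0.000134 and 4.92e-05). With siFLI1 they were 1.78-fold and 2.03-fold higher (adjusted p = 0.000418 and 2.65e-05). MKL1 overlaps the row of SGSM3. ELK3, an ETS partner of SRF, was 2.05-fold and 1.90-fold higher (adjusted p = 0.000295 and 0.000421), and ELK4, its paralog, 1.66-fold and 1.71-fold lower (adjusted p = 0.000264 and 0.000184). SRF itself, named after its values were seen, was 1.24-fold and 1.23-fold higher, from 9.32 and 9.01 FPKM to between 11.0 and 11.8 (adjusted p = 0.00464 and 0.00531).

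Of 16 tested genes described as AP-1 targets, 8 were higher and 5 lower with siEWSR1 (median log2 change 0.22), and 8 were higher and 3 lower with siFLI1 (median 0.34). Over all genes, 33.2% and 35.7% were higher and 31% and 29.6% lower. CD44, counted as higher, was below 1 FPKM with siNeg and entered the test only through the other libraries. MMP1 and MMP10, counted as lower with siEWSR1, were below 1 FPKM with that siRNA and likewise entered only through the other libraries. CCL2, a chemokine, was at 1.42 and 1.11 FPKM with siNeg, 14.6 and 16.7 with siEWSR1, and 32.9 and 19.3 with siFLI1 (9.17-fold and 14.7-fold higher, adjusted p = 7.69e-05 and 3.08e-05). PLAU, the urokinase protease, was 4.57-fold and 5.67-fold higher (adjusted p = 7.06e-06 and 3.63e-06), and overlaps C10orf55. GJA1, a gap junction protein, was 3.83-fold and 5.61-fold higher (adjusted p = 0.000218 and 6.98e-05), and HMOX1, a haem-degrading enzyme, 3.29-fold and 4.18-fold higher (adjusted p = 1.28e-05 and 6.01e-06). Members that were lower, named after their values were seen, included CCND1, a cell cycle gene that also stood in the Ewing sarcoma list, at 2.49-fold and 2.61-fold. They also included MMP9, a matrix protease, at 1.63-fold and 1.93-fold. The siEWSR1 call of MMP9 was lost without siNeg replicate 2.

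Of 15 tested genes described as EGR targets, 10 were higher and 4 lower with each siRNA (median log2 change 0.84 with siEWSR1 and 0.87 with siFLI1). Over all genes, 33.2% and 35.7% were higher and 31% and 29.6% lower. THBS1, ICAM1 and IGF2, counted as higher, were below 1 FPKM with siNeg and entered the test only through the other libraries. Their direction was thus tied to the filter. With siFLI1 the log2 change of IGF2 was 0.86 and turned to -0.03 under quantile normalization. The calls of SOD1, counted as lower, were kept in 9 of 18 alternatives with siEWSR1 and in 10 of 18 with siFLI1. CDKN1C, a cell cycle inhibitor, was at 1.61 and 2.24 FPKM with siNeg, 16.3 and 13.7 with siEWSR1, and 28.3 and 31.4 with siFLI1 (6.40-fold and 12.6-fold higher, adjusted p = 2.4e-05 and 6.99e-06). Its difference between the siRNAs also passed, at -0.98 ± 0.14 (adjusted p = 0.0258), and was lost with no filter or without siEWSR1 replicate 2 or either siFLI1 library. ID3, an inhibitor of helix-loop-helix factors, was at 36.1 FPKM in both siNeg libraries and in the siFLI1 libraries at 220.8 and 238.5 (5.75-fold and 6.29-fold higher, adjusted p = 2.77e-06 and 1.96e-06). THBS1, a matrix glycoprotein, was 12.5-fold and 14.0-fold higher on the log2(FPKM + 0.5) scale (adjusted p = 4.74e-06 and 3.3e-06), which understates change from levels of 0.0217 and 0.0117 FPKM. GDF15, a stress cytokine, was 1.95-fold and 2.96-fold higher (adjusted p = 0.0024 and 0.00027). ICAM1, an adhesion molecule, was 6.06-fold and 7.35-fold higher (adjusted p = 2.58e-05 and 1.46e-05). TXNIP, a thioredoxin inhibitor, was 1.29-fold lower with siEWSR1 than with siFLI1 (adjusted p = 0.0353), a call kept in 8 of 18 alternatives, and its row overlaps those of NBPF genes.

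**Figure D4:**
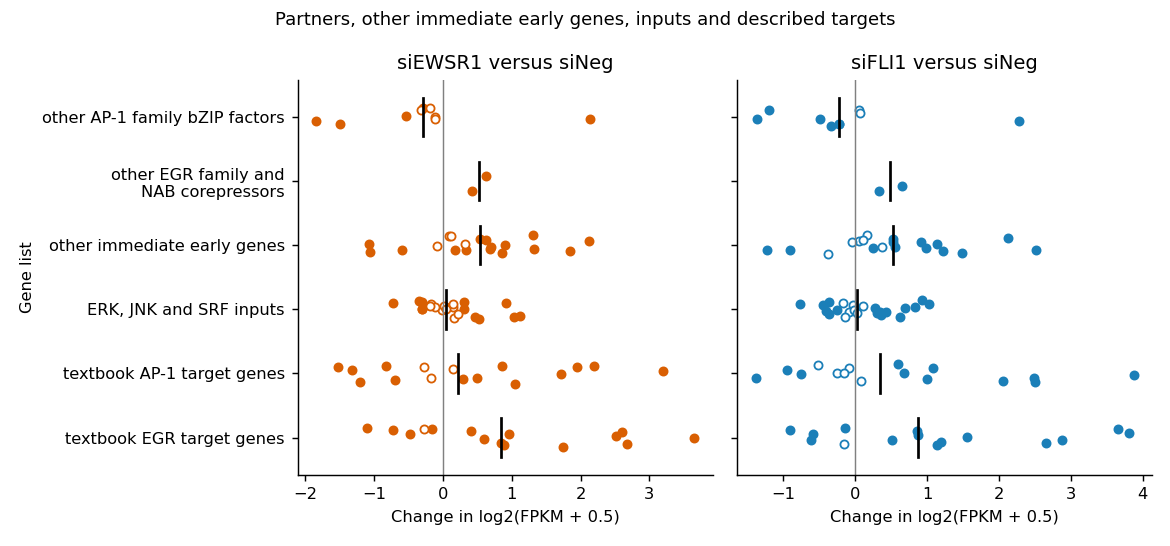
Change in log2(FPKM + 0.5) of every tested gene of 6 lists (vertical axis) with siEWSR1 (left) and siFLI1 (right) against siNeg. Filled points were called at an adjusted p of 0.05, open points were not, and black bars are list medians. The medians run from -0.29 and -0.23 for other AP-1 family factors to 0.84 and 0.87 for described EGR targets.

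Markers of other cell types were low or mixed. All 5 blood and all 5 endothelial markers were below 1 FPKM in every library, and CD3E and HBB were at 0 in all. Their sums ranged from 0.235 to 0.350 FPKM with siNeg, 0.499 to 0.594 with siEWSR1 and 0.327 to 0.409 with siFLI1 for blood, and from 0.354 to 0.428, 1.0 to 1.05 and 0.992 to 1.06 for endothelium. The 6 epithelial markers summed to 23.1 to 24.4 FPKM with siNeg, 26.1 to 28.1 with siEWSR1 and at most 30.5 with siFLI1, mostly KRT18. Of the 3 tested, KRT18 was 1.19-fold and 1.30-fold higher and CLDN4, a tight junction gene, 2.58-fold and 3.30-fold higher. ESRP1, an epithelial splicing factor, was 3.93-fold and 3.91-fold lower, and all 3 were called with each siRNA. CLDN4 was below 1 FPKM with siNeg, and ESRP1 was below 1 FPKM with siEWSR1 and siFLI1. The direction of both was thus tied to the filter. The 6 fibroblast markers summed to 35.7 to 37.4, 45.5 to 47.4 and 47.4 to 48.6 FPKM. Of these, PDGFRA and PDGFRB rose, THY1 fell, and LUM and FAP were at 0 with siNeg and below 1 elsewhere. PDGFRA was below 1 FPKM with siNeg, so its direction was tied to the filter. The 8 Ewing sarcoma markers summed to 879.8 to 912.5, 432.9 to 537.7 and 472.0 to 520.9 FPKM. The part of these shifts in the changes of the AP-1 and EGR genes was not tested.

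The genes nearest in pattern to each tested member were found by the root mean square distance between centred log2 values over the 6 libraries, among 8703 or 8704 genes of at least 5 FPKM. For JUNB they were APOC1, an apolipoprotein (distance 0.113), and COL6A2, a collagen chain (0.154), which stood at 7.42 and 7.88 FPKM with siNeg and at 41.2 to 61.8 in the others. For FOS they were RFC2, a replication clamp loader subunit (0.0161), and the pseudogene CES1P2 (0.0202). For EGR1 they were RIPK1, a kinase of death receptor signalling (0.0321), and DIRC3 (0.043). The nearest were KAT14 (0.0342) and RP9P (0.0347) for EGR2, GGPS1 (0.0213) and ARID4A (0.0325) for FOSL1, and NIPSNAP1 (0.0218) and METTL6 (0.0238) for FOSL2. They were HINT2 (0.0565) and PDXP (0.0569) for JUN, and RPS15 (0.0398) and GPX1 (0.04) for JUND. Many genes follow each pattern in so few libraries, so these pairs are a description.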

How the data were processed

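RNA-seq was analysed from 6 libraries of TC32 cells, 2 each for siNeg, siEWSR1 and siFLI1, grouped by their titles. The deposited files hold gene-level FPKM made by the authors, with the bounds of an interval for each value, per the file headers. Per the submitters' processing notes, the tools were TopHat2 2.0.13, Cufflinks and Cuffdiff and the build was hg19. For the annotation, the strand setting and reads with several places, no treatment is given in the sources used here. Values scale with the total of a library, so very abundant RNAs move all others. Read counts were not recovered, since 41.1% to 43.6% of low genes came out whole within 0.01, so no count model was used.

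Each file held 27442 rows for 26931 symbols. The rows of 380 symbols on more than 1 row were summed. Starts were converted to count from 1. Genes at 1 FPKM or above in 2 or more libraries were tested on the log2(FPKM + 0.5) scale by limma 3.58.1 (R 4.3.3), with a variance trend and 1 fit over the 3 groups (3 residual and 3.39 prior degrees of freedom), two-sided, with Benjamini-Hochberg adjustment over 13043 genes and a threshold of 0.05. Folds are on that scale, where the pseudocount shrinks the change of low genes. Genes below 1 FPKM with siNeg entered only through libraries with higher values, so their direction was tied to the filter. Among the list genes called higher, these were THBS1, ICAM1, IGF2, MAF, PHLDA1, KLF2, CD44, CLDN4 and PDGFRA. ESRP1 entered through the siNeg libraries alone. JDP2, MMP1 and MMP10 were below 1 FPKM with siEWSR1 and entered through the other libraries, so their direction with siEWSR1 was tied likewise. Figures and tables used Python 3.11.15, pandas 2.3.3 and matplotlib 3.10.9. The fit was tested on simulated data.

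The members and lists were chosen with earlier results of these data known. The named list genes are up to 4 called genes per list and comparison with the largest change, a group mean of 5 FPKM or above and no overlap, and FOSB, EGR4, NAB1 and NAB2 whatever their values. The 2 nearest-pattern genes of each member are named too. Others are identified as chosen after their values were seen. Whether replicates were separate cultures is not in the labels, so the p-values measure the spread between these samples alone, and that spread may be technical. Fewer cells of a type and less RNA per cell cannot be told apart. The alternatives were other pseudocounts, filters, scalings and variance models, a fit of 2 groups, replicate blocks, dropping symbols on several rows, and leaving out each library.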

Additional observations from a re-analysis of the deposited data

How the results depend on the processing

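The calls of FOS, JUNB and EGR1 against siNeg kept their direction and passed in all 18 alternatives with each siRNA. Their log2 changes ranged from -0.85 to -0.61 (siEWSR1) and -0.8 to -0.66 (siFLI1) for FOS, 2.07 to 2.47 and 2.68 to 3.02 for JUNB, and 0.82 to 0.98 and 0.93 to 1.09 for EGR1. Of 429 log2 changes of members over comparisons and alternatives, 397 kept direction and side of the threshold. With 2 libraries a group, a lone library left in a group was assumed to vary like the others. For the other changes the cause was not tested.

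Under quantile normalization, FOSL1 stood at -0.18 with siEWSR1 and -0.35 with siFLI1 (passing, adjusted p = 0.0342), FOSL2 at -0.07 and EGR2 at 0.2 (no longer passing) with siFLI1, and FOS at 0.05 between the siRNAs. Under median-ratio scaling, JUN stood at -0.45 with siEWSR1 (passing), FOSL2 at -0.02 with siFLI1 and FOS at 0.03 between the siRNAs. With no filter EGR2 stood at 0.31 with siFLI1 and did not pass. A fit of the 2 groups called JUN (-0.22) and JUND (0.26) with siFLI1.

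The replicate numbers are not said to mark a shared culture or day. Over all tested genes, deviations of same-numbered libraries correlated at -0.137 (siNeg with siEWSR1), -0.053 (siNeg with siFLI1) and 0.069 (siEWSR1 with siFLI1). These values show no common pairing over all genes and cannot decide it for single genes. With a replicate block JUN passed with siEWSR1 (-0.44, adjusted p = 0.018), the genes called between the siRNAs went from 504 to 319, and the lists of other AP-1 factors and AP-1 targets there went from 1 and 1 to 0 and 2. With the siEWSR1 numbers crossed in the replicate block, chosen after seeing the data, the counts between the siRNAs were 137 over all genes, 0 other AP-1 factors, 0 AP-1 targets and 1 EGR target, 1 of the 2 NAB genes was called with siFLI1, and JUND passed there (0.26).

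Leaving out 1 library at a time gave, with siEWSR1, -0.27 to -0.17 for FOSL2, -0.71 to -0.17 for JUN, -0.25 to 0.1 for JUND, -0.02 to 0.23 for EGR2 and 1 to 2 NAB genes. With siFLI1 it gave -0.03 to 0.07 for FOSL2, -0.28 to -0.16 for JUN, 0.15 to 0.37 for JUND, 0.19 to 0.44 for EGR2 and 1 to 2 NAB genes. Between the siRNAs it gave -0.11 to 0.1 for FOS, -0.49 to 0.05 for JUN, -0.78 to -0.38 for JUNB, -0.51 to -0.16 for JUND, 0 to 3 members, 4 to 728 genes in all (4 without siFLI1 replicate 2, 728 without siEWSR1 replicate 1), 0 other AP-1 factors, 0 to 1 other immediate early gene, 0 to 3 AP-1 targets and 0 to 3 EGR targets.

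List counts were recomputed as an addition after seeing the data. Other AP-1 factors called with siEWSR1 went from 5 to 8 with no filter and to 3 at a mean FPKM of at least 5, and with siFLI1 from 7 to 4 at that mean. There AP-1 targets went from 13 to 8 with siEWSR1 and EGR targets from 14 to 7 with each siRNA, as fewer genes were tested. NAB genes called with siFLI1 went from 2 to 1 with no filter, quantile normalization and median-ratio scaling. Between the siRNAs, no filter gave 88 genes, 0 other AP-1 factors and 0 EGR targets. The robust variance trend gave 825 genes, 1 other immediate early gene, 2 AP-1 targets and 5 EGR targets. The 2-group fit gave 111 genes, 0 other AP-1 factors, 0 AP-1 targets and 1 EGR target. Other AP-1 factors were also 0 with a pseudocount of 1, a mean of at least 5 and median-ratio scaling. A pseudocount of 1 and that mean each called 1 other immediate early gene, and that mean 0 AP-1 targets.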
